A study of Mus musculus with 30 samples.

Results

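Matrix metalloproteinases (MMPs) and their tissue inhibitors were followed in mouse macrophages held with vehicle or with 1 of 5 compounds that act on the liver X receptors (LXR). The genes were the collagenases Mmp8 and Mmp13, the gelatinase Mmp9, the elastase Mmp12, the membrane-bound protease Mmp14, the protease Mmp19 and the inhibitors Timp1 and Timp2. They were found by symbol in the macrophage count table, which held all 8 among 24063 genes, and all 8 passed the filter on low counts among 11544 genes tested. The macrophages had been drawn into the peritoneum with thioglycollate and were grown in RPMI with serum. Every group, vehicle included, was first held for 24 h in medium with 10% lipid deficient FBS, 50 uM mevalonate and 10 uM mevastatin, a statin, and then for 18 to 20 h with its ligand. The vehicle group received DMSO / EtOH and the ligand groups desmosterol at 10 uM or DMHCA, MePipHCA, GW3965 or T0901317 at 1 uM each, with 3 replicates a group and 18 libraries in all. Primary mouse hepatocytes, in Hepatozyme medium, had the same 6 groups with 2 replicates each, 12 libraries. Strain, sex, age and the number of animals are not given in the sources used here. Whether replicates came from separate animals or cultures is not stated either. The tests therefore weigh differences against the variation among these libraries, which may be technical.

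MMPs are zinc proteases that are made as inactive precursors and cut collagens, elastin, other matrix proteins and also cytokines. TIMPs bind the active site and block it, and Timp2 together with membrane-bound Mmp14 also takes part in activating the Mmp2 precursor. Macrophages secrete several of these enzymes, among them Mmp12, the macrophage elastase. LXRs are nuclear receptors that bind oxidised sterols and switch on cholesterol export. Desmosterol is a late precursor of cholesterol that activates them, and DMHCA and MePipHCA are hydroxycholenamides that differ in the amide, which carries dimethyl in DMHCA and a methylpiperidinyl group in MePipHCA. GW3965 and T0901317 are synthetic agonists.

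Macrophage libraries held 3862655 to 15685961 exon counts and hepatocyte libraries 6627812 to 18626562. The smallest macrophage libraries were in ligand groups. Abca1, the cholesterol exporter used as a check of LXR activation, rose with each of the 5 ligands in macrophages. In hepatocytes it rose with GW3965 (2.24 ± 0.09) and T0901317 (2.40 ± 0.09), fell with MePipHCA (−0.78 ± 0.09, edgeR adjusted p = 4.46e-06) and was not called with desmosterol (0.21 ± 0.09) or DMHCA (−0.09 ± 0.09). Macrophage markers were abundant in the macrophage libraries (Lyz2, lysozyme, at 10733 ± 280.4 CPM in vehicle, SD, n = 3, where CPM is exon counts scaled to a common library size). Of 10 neutrophil markers, cells in which Mmp8 and Mmp9 are stored, S100a9, Camp and Mpo had 0 counts in every macrophage library and Ly6g had no entry in the table. Stromal, mesothelial and cell cycle markers were present in all 18 libraries, and their levels stand below beside the groups in which they differed.

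Levels of different genes were compared per length, as RPKM, which is CPM divided by the length of the counted transcript in kilobases. In vehicle macrophages Mmp12 stood at 1085 ± 36.3 RPKM (SD, n = 3), the 31st highest of the 11544 genes tested, and took 0.398% of all exon counts. Timp2 followed at 343 ± 2.91 RPKM, Mmp14 at 73.6 ± 2.19 RPKM and Mmp19 at 51.7 ± 2.32 RPKM. Much lower were Mmp9 (5.61 ± 0.458 RPKM), Mmp8 (3.08 ± 0.429 RPKM), Timp1 (2.15 ± 0.533 RPKM) and Mmp13 (0.511 ± 0.173 RPKM). Neighbours in this order were separated by more than the spread of their replicates, except Mmp8 and Timp1, whose vehicle libraries overlapped. Mmp13 rested on 11 to 21 counts per vehicle library and Timp1 on 17 to 39, so their changes carry wide intervals. All further levels are in CPM on TMM-scaled libraries and serve comparisons of 1 gene between groups.

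**Figure D1:**
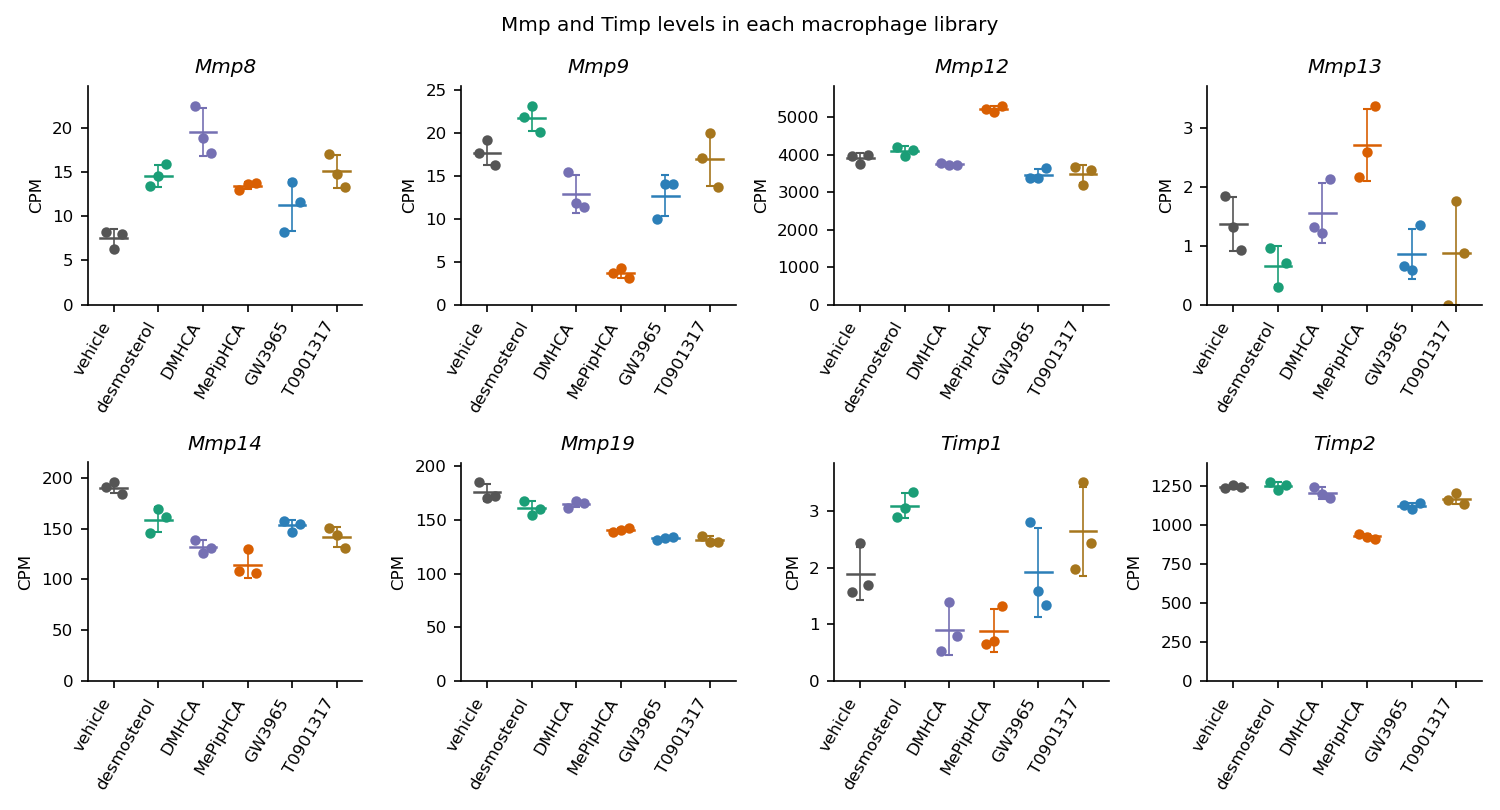
Level of each of the 8 genes (vertical axis, CPM, linear from 0) in the 6 macrophage groups (horizontal axis); points are libraries, horizontal bars group means and vertical bars 1 SD (n = 3). Mmp8 is lowest in vehicle, Mmp14 highest in vehicle, and MePipHCA stands apart for Mmp9, Mmp12 and Timp2.

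Desmosterol raised 1 (Mmp8) and lowered 1 (Mmp14), where 9.5% of all genes tested were called (4.93% up, 4.57% down). DMHCA raised Mmp8 and lowered Mmp14 and Mmp9, 3 calls among 8, against 11.7% of all genes (5.8% up, 5.9% down). MePipHCA gave 7 calls, with Mmp8, Mmp12 and Mmp13 up and Mmp9, Mmp14, Mmp19 and Timp2 down, where 35.4% of all genes were called (17.2% up, 18.3% down). GW3965 gave 6, with Mmp8 up and Mmp9, Mmp12, Mmp14, Mmp19 and Timp2 down, against 13.2% of all genes (6.54% up, 6.69% down). T0901317 raised Mmp8 and lowered Mmp12, Mmp14 and Mmp19, 4 calls, against 12.8% of all genes (6.29% up, 6.55% down). A call is an adjusted p under 0.05 in edgeR's quasi-likelihood test, adjusted over all genes by Benjamini-Hochberg. Changes are log2 fold changes over vehicle ± SE. The median over the 8 genes was 0.04 with desmosterol, −0.07 with DMHCA, −0.37 with MePipHCA, −0.24 with GW3965 and −0.15 with T0901317, beside medians over all genes within 0.01 of 0. The 5 comparisons share the 3 vehicle libraries, so they are not independent of each other. Ligand and vehicle libraries did not overlap for 25.1% of all genes with desmosterol, 27.5% with DMHCA, 48.1% with MePipHCA, 28.4% with GW3965 and 26.2% with T0901317, which is the background for the statements on overlap of single genes.

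**Figure D2:**
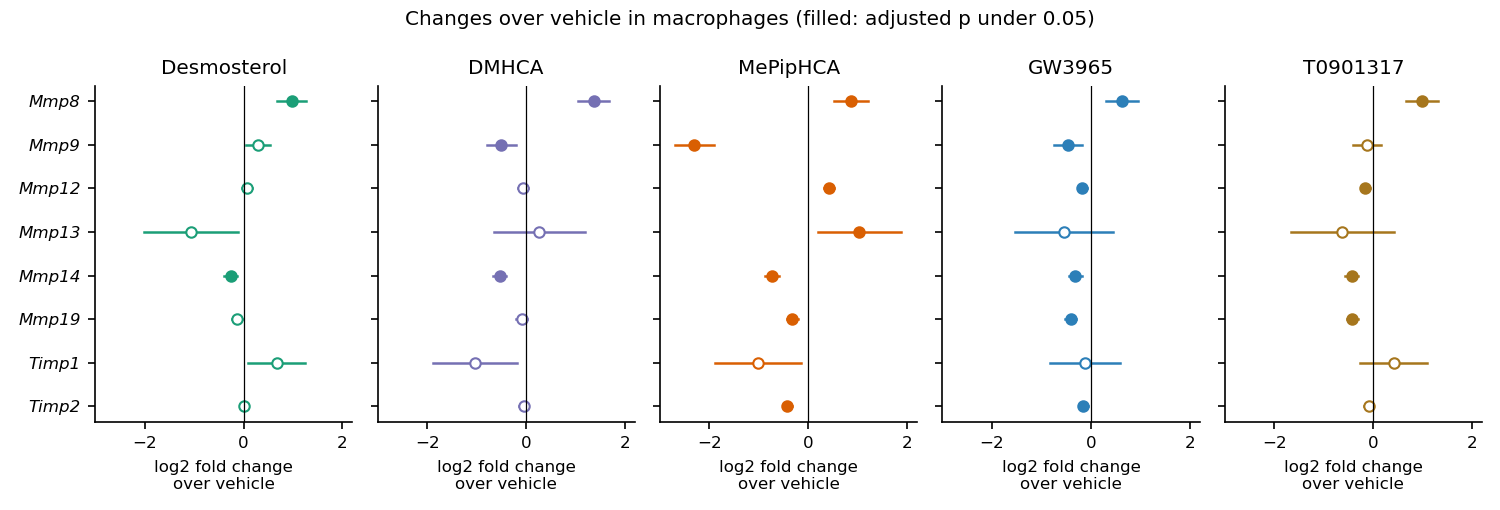
Log2 fold change over vehicle (horizontal axis) of the 8 genes with 95% intervals in macrophages, 1 panel per ligand; filled points passed an adjusted p of 0.05. Mmp8 lies to the right and Mmp14 to the left of 0 in all 5 panels, and Mmp9 with MePipHCA has the largest change at −2.31.

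Mmp8, the collagenase first described in neutrophils, was the 1 gene of the 8 to rise with each ligand. It stood at 8.21, 6.31 and 8.02 CPM in the vehicle libraries. With desmosterol it stood at 13.4, 14.5 and 15.9 CPM, with DMHCA at 22.5, 18.9 and 17.2 CPM and with MePipHCA at 12.99, 13.7 and 13.8 CPM. T0901317 gave 17.1, 14.8 and 13.4 CPM and GW3965 gave 8.20, 14.0 and 11.7 CPM. In 4 of the ligand groups each library was above each vehicle library, while GW3965 replicate 1 was level with vehicle. The rise was 2.58-fold with DMHCA (1.37 ± 0.15, edgeR adjusted p = 5.13e-09). It also rose with T0901317 (0.98 ± 0.16, edgeR adjusted p = 7.94e-06), desmosterol (0.97 ± 0.14, edgeR adjusted p = 3.52e-06) and MePipHCA (0.86 ± 0.17, edgeR adjusted p = 4.87e-05). The rise with GW3965 (0.64 ± 0.16, edgeR adjusted p = 0.00433) was lost without GW3965 replicate 2 (0.106), without vehicle replicate 2 (0.0605) and with all libraries thinned to 1 depth (0.0684), with a range of 0.000673 to 0.106 over all settings. Of the neutrophil markers S100a8 and Csf3r were abundant enough to test, and their summed list lay at 102 to 106 CPM in vehicle, 91.3 to 95.2 with desmosterol, 97.8 to 112 with DMHCA, 70.7 to 86.3 with MePipHCA, 92.6 to 101 with GW3965 and 89.3 to 104 with T0901317. S100a8 fell with T0901317 (−0.72 ± 0.21) and Csf3r with MePipHCA (−0.40 ± 0.08), and neither was called with another ligand over vehicle. The part of any neutrophils in the level of Mmp8 was not tested.

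Mmp8 lies in the MMP cluster of chromosome 9, on the plus strand at chr9:7558429-7568486 (mm10), and its neighbour Mmp27 starts 2971 bases beyond its end, at chr9:7571458-7581393 on the same strand. The look at this cluster was chosen after the values of Mmp8 and Mmp27 were seen. The macrophage table held 10 Mmp genes of the cluster, of which 4 were abundant enough to test (Mmp13, Mmp12, Mmp8 and Mmp27) and the other 6 had under 100 counts over the 18 libraries together. Mmp27, a little-studied member of the family, stood at 9.32, 10.7 and 7.00 CPM in vehicle and between 19.3 and 40.3 CPM in the 15 ligand libraries, with no overlap. It rose by 1.22 ± 0.12 with desmosterol, 1.94 ± 0.13 with DMHCA, 1.65 ± 0.13 with MePipHCA, 1.73 ± 0.13 with GW3965 and 1.89 ± 0.13 with T0901317. By group mean both genes were lowest in vehicle and highest with DMHCA, but the order in between differed. Among the ligand groups Mmp27 was lowest with desmosterol (19.3 to 22.3 CPM), where Mmp8 had a mean of 14.6 CPM. Mmp8 was lowest of these with GW3965 (mean 11.3 CPM), and GW3965 replicate 1 had high Mmp27 (31.9 CPM) without high Mmp8 (8.20 CPM). The RefSeq annotation also lists a long noncoding gene, Gm31751, from 7557172 to 7619634 on chromosome 9, which spans both genes. The file headers state no strand option for the counting, so reads of transcripts on either strand cannot be told apart. Exon overlaps were taken from another annotation, GENCODE, in which no exon of another gene overlaps those of Mmp8 or Mmp27. Whether it holds Gm31751 was not looked up, so overlap with exons of Gm31751 was not tested.

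**Figure D3:**
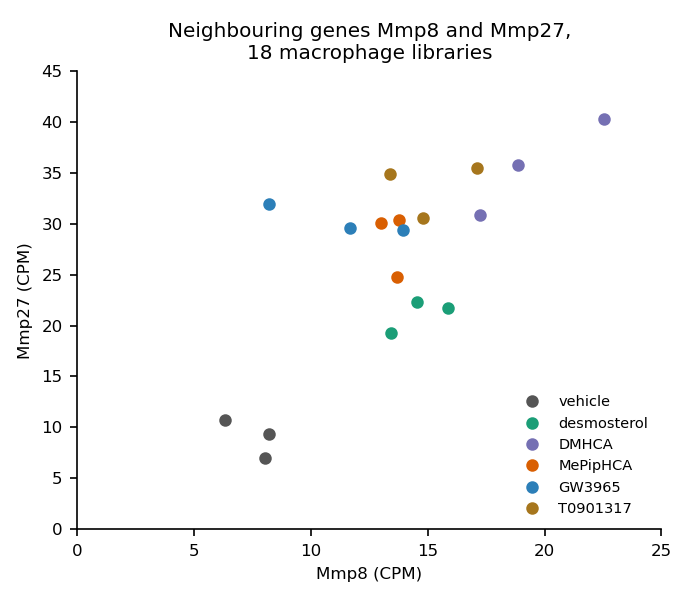
Mmp27 (vertical axis, CPM) against Mmp8 (horizontal axis, CPM) in the 18 macrophage libraries, coloured by group. The 3 vehicle libraries lie at the lower left, below 11 CPM of Mmp27, and the DMHCA libraries at the upper right.

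The sequences before the start sites of the 4 cluster genes that were tested are shown here. Mmp8 and Mmp27 rose with all 5 ligands, while Mmp12 and Mmp13 rose with MePipHCA only, Mmp13 narrowly. Each is the 250 bases before the RefSeq start on GRCm38.p6 (mm10), plus strand, 5′ to 3′, and capitals mark the AP-1 motif TGANTCA, searched on both strands.
Mmp8 (chr9:7558179-7558428): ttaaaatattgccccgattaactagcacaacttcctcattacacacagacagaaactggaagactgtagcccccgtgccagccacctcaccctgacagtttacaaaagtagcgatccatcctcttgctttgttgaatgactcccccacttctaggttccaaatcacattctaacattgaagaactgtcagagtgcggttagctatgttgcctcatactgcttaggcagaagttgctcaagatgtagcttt
Mmp27 (chr9:7571146-7571395): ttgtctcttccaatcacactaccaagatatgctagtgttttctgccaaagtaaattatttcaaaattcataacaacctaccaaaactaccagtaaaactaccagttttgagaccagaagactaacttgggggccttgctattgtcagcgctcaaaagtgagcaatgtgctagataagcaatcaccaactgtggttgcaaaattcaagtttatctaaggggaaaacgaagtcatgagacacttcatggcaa
Mmp12 (chr9:7347124-7347373): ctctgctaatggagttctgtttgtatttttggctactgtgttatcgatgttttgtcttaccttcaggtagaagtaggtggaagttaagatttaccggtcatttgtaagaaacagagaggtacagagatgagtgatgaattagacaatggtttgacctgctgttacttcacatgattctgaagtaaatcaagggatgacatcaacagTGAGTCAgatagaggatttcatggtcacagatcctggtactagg
Mmp13 (chr9:7272264-7272513): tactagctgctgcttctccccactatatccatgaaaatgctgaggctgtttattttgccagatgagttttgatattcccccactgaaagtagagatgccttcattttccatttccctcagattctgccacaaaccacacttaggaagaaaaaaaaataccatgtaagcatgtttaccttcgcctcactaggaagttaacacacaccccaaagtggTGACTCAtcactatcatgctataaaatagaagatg
The RefSeq start of Mmp27 differs from that of its counted transcript, and Mmp12 has a further RefSeq entry upstream, not shown, whose window holds no AP-1 motif. The AP-1 motif was found once in the Mmp12 window, beginning 44 bases before the start, and once in the Mmp13 window, 35 bases before the start, and not in the Mmp8 or Mmp27 windows. Of 32851 RefSeq promoter windows of this length 6.75% hold it. The ETS motif GGAAGT, found in 19.7% of windows, was present in the Mmp12, Mmp13 and Mmp8 windows (beginning 172, 61 and 221 bases before the start) and not in that of Mmp27. Of the 8 genes 6 had an entry among the RefSeq promoters, and Mmp9 and Mmp19 had none. Timp1 held the ETS motif 174 bases before its start, and the Mmp14 and Timp2 windows held neither motif. Whether a motif goes with the change of a gene was not tested.

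Mmp12, the macrophage elastase (chr9:7347374-7360461, plus strand), was the most abundant of the MMPs and moved in both directions. It stood at 3974, 3749.9 and 3978 CPM in vehicle and at 5205, 5127 and 5300.2 CPM with MePipHCA. It lay at 3367, 3379 and 3636 CPM with GW3965 and at 3662, 3201 and 3597 CPM with T0901317. Each MePipHCA library was above and each library of the synthetic agonists below the vehicle libraries. The rise with MePipHCA was 1.34-fold (0.42 ± 0.05, edgeR adjusted p = 6.36e-10). The falls were small, by 0.17 ± 0.05 with GW3965 (edgeR adjusted p = 0.00668) and by 0.16 ± 0.05 with T0901317 (edgeR adjusted p = 0.0122). The GW3965 call was lost without GW3965 replicate 2 (0.0562, range 0.00133 to 0.0562), and the T0901317 call without T0901317 replicate 2 (0.157) and without vehicle replicate 1 (0.0516) or 3 (0.0656), with 0.00212 at the lowest. With desmosterol (3952 to 4211 CPM) and DMHCA (3727 to 3779.9 CPM) Mmp12 overlapped vehicle and was not called. In the annotation 157 bases of its exons overlap those of Mmp1b on the other strand, a gene with 1 count over all libraries.

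Mmp13, collagenase 3 (chr9:7272514-7283333, plus strand), had at most 23 counts in a macrophage library. It stood at 1.85, 1.31 and 0.928 CPM in vehicle and at 2.17, 2.59 and 3.37 CPM with MePipHCA, which did not overlap. The rise of 1.03 ± 0.42 (edgeR adjusted p = 0.0485) passed narrowly and was lost in 8 of 11 other settings, with a range of 0.0152 to 0.267. These were DESeq2 (0.0882), no filter on low counts (0.0526), the replicate block (0.0607) and leaving out any MePipHCA replicate or vehicle replicate 2 (0.109) or 3 (0.163). With desmosterol it stood at 0.966, 0.306 and 0.708 CPM (−1.07, 95% interval −2.02 to −0.11, edgeR adjusted p = 0.169). T0901317 replicate 1 had 0 counts, which allows up to 0.744 CPM (3 counts in that library, counting error only). Neither T0901317, GW3965 nor DMHCA gave a call, with intervals of −1.66 to 0.41, −1.54 to 0.45 and −0.66 to 1.19.

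Mmp9, gelatinase B (chr2:164948219-164955849, plus strand), which cuts denatured collagen and type IV collagen, had the largest change of the 8 genes. It stood at 17.7, 19.2 and 16.3 CPM in vehicle and at 3.68, 4.25 and 3.08 CPM with MePipHCA, 17 to 21 counts a library, far below vehicle. It lay at 15.5, 11.9 and 11.4 CPM with DMHCA, 9.93, 14.1 and 14.0 CPM with GW3965, 17.1, 20.0 and 13.7 CPM with T0901317 and 21.9, 23.2 and 20.1 CPM with desmosterol. Libraries with DMHCA and GW3965 were below the vehicle libraries, those with T0901317 overlapped them and those with desmosterol were above them. The fall with MePipHCA was 4.95-fold (−2.31 ± 0.19, edgeR adjusted p = 4.78e-13). DMHCA lowered it too (−0.50 ± 0.15, edgeR adjusted p = 0.0171, range over settings 0.00721 to 0.171). That call did not hold when DMHCA replicate 2 (0.0846), DMHCA replicate 3 (0.171) or vehicle replicate 2 (0.106) was left out. The fall with GW3965 (−0.45 ± 0.14, edgeR adjusted p = 0.0227) did not hold with libraries thinned to 1 depth (0.147), without GW3965 replicate 1 (0.157) or without vehicle replicate 2 (0.13), over a range from 0.0147. Neither desmosterol (0.29 ± 0.12, edgeR adjusted p = 0.131) nor T0901317 (−0.13 ± 0.14, edgeR adjusted p = 0.655) passed.

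Stromal, mesothelial, cell cycle and lymphocyte markers fell in the MePipHCA macrophage libraries, in which Mmp9 fell, and the endothelial and eosinophil markers tested did not pass. As background for the marker counts, 18.3% of all genes fell with MePipHCA, 5.9% with DMHCA, 6.69% with GW3965 and 6.55% with T0901317. The summed level of 8 stromal markers was 262 to 332 CPM in vehicle, 77.7 to 91.7 CPM with MePipHCA, 143 to 222 CPM with DMHCA, 226 to 236 CPM with GW3965, 266 to 342 CPM with T0901317 and 240 to 313 CPM with desmosterol, and none of the 8 was at 0 in all libraries. The 6 tested fell with MePipHCA, among them the contractile gene Acta2 (−4.30 ± 0.32) and the collagen gene Col1a1 (−1.55 ± 0.15), and with DMHCA (Acta2 −1.35 ± 0.20, Col1a1 −0.77 ± 0.13). Of 5 mesothelial markers 4 fell with MePipHCA, and their sum went from 22.4 to 28.4 CPM in vehicle to 7.78 to 9.83 CPM. Of 3 tested cell cycle markers 3 fell with MePipHCA, and the sum of the 4 listed was 28.3 to 33.7 CPM in vehicle and 8.80 to 9.91 CPM with MePipHCA. The 1 lymphocyte marker tested, Cd4, fell with MePipHCA (−3.40 ± 0.52), and the 7 listed summed to 4.44 to 4.64 CPM in vehicle and 1.61 to 1.95 CPM with MePipHCA. The endothelial Kdr (−0.10 ± 0.11) and the eosinophil Siglec5 (0.33 ± 0.18) did not pass. Mki67, a marker of dividing cells, fell by 2.43 ± 0.21 on the log2 scale. With GW3965 2 of the 3 tested cell cycle markers fell and with T0901317 1, and 1 of the 6 tested stromal markers fell with GW3965. The summed macrophage markers, most of which was Lyz2 in vehicle, fell too, from 16033 to 16126 CPM in vehicle to 12836 to 13057 CPM with MePipHCA. Of the 8 listed macrophage markers 7 were tested, of which 4 fell and 1 rose with MePipHCA, and Adgre1 had no entry. Fewer cells of a type and less RNA per cell cannot be told apart in these bulk libraries, and the part of these cells in the changes of Mmp9, Timp2 and the other genes was not tested. The MePipHCA libraries were also smaller than the vehicle libraries, and the change of Mmp9 with MePipHCA ran from −2.42 to −2.16 over the 12 other settings, −2.42 being that with all libraries thinned to the smallest depth.

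**Figure D4:**
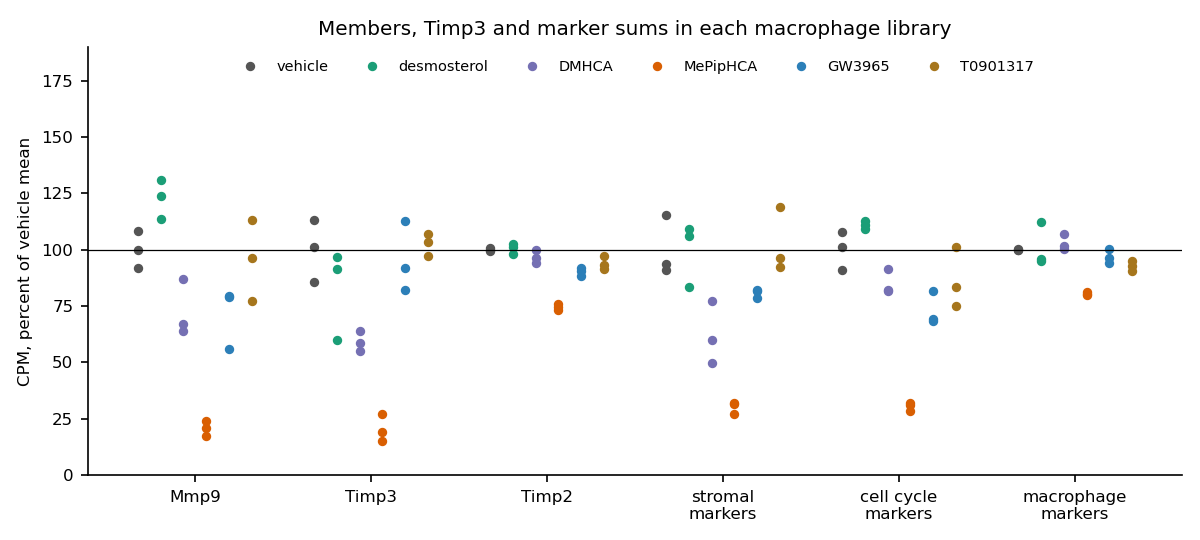
CPM as percent of the vehicle mean (vertical axis, linear from 0; line at 100) for Mmp9, Timp3, Timp2 and 3 marker sums in each of the 18 macrophage libraries. With MePipHCA the points of Mmp9, Timp3 and the stromal and cell cycle sums lie together between 15 and 32 percent, Timp2 and the macrophage sum higher.

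Mmp14, the membrane-anchored MT1-MMP (chr14:54431604-54441258, plus strand), was the 1 gene of the 8 to fall with each ligand. It stood at 191, 195 and 184 CPM in vehicle. With desmosterol it stood at 145, 169 and 162 CPM, with DMHCA at 139, 126 and 131 CPM and with MePipHCA at 108, 129.96 and 106 CPM. GW3965 gave 158, 147 and 155 CPM and T0901317 gave 151, 144 and 131 CPM. Each of the 15 ligand libraries was below each vehicle library. The fall was 1.67-fold with MePipHCA (−0.74 ± 0.07, edgeR adjusted p = 6.72e-12), 1.45-fold with DMHCA (−0.53 ± 0.07, edgeR adjusted p = 6.43e-08) and 1.36-fold with T0901317 (−0.44 ± 0.07, edgeR adjusted p = 2.18e-06). It also fell with GW3965 (−0.32 ± 0.06, edgeR adjusted p = 0.000342) and desmosterol (−0.26 ± 0.06, edgeR adjusted p = 0.00376). The desmosterol call was lost without desmosterol replicate 1 (0.0561), with 0.000475 at the lowest.

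Mmp19 (chr10:128790953-128800824, plus strand), a secreted protease of basement membrane proteins, fell with MePipHCA and the synthetic agonists. It stood at 185, 170.5 and 172 CPM in vehicle, at 138, 140.1 and 143 CPM with MePipHCA, at 131, 133 and 134 CPM with GW3965 and at 135, 129.8 and 129 CPM with T0901317. Replicates of these groups were tight and did not overlap with vehicle. The falls were −0.42 ± 0.05 with T0901317 (edgeR adjusted p = 9.92e-08), −0.40 ± 0.05 with GW3965 (edgeR adjusted p = 2.01e-07) and −0.32 ± 0.06 with MePipHCA (edgeR adjusted p = 7.15e-06). DMHCA (161 to 168 CPM, −0.09 ± 0.05, edgeR adjusted p = 0.347) and desmosterol (155 to 168 CPM, −0.13 ± 0.05, edgeR adjusted p = 0.118) gave no call, although their libraries too were below vehicle. Exons of Tmem198b overlap those of Mmp19 on the other strand over 789 bases and those of the antisense gene Gm47093 over 212, and reads of the genes cannot be told apart there. Tmem198b stood at 66.9 CPM in vehicle and was not called with any ligand (−0.20 ± 0.07 with GW3965, edgeR adjusted p = 0.0696). Its other changes were −0.18 ± 0.08 with MePipHCA, −0.18 ± 0.08 with T0901317, −0.14 ± 0.07 with desmosterol and −0.04 ± 0.08 with DMHCA. The part of Tmem198b reads in the changes of Mmp19 was not tested.

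Timp2 (chr11:118301061-118355411, minus strand) was the abundant inhibitor and fell with MePipHCA. It stood at 1233, 1253 and 1238 CPM in vehicle and at 940.3, 924 and 912 CPM with MePipHCA, with no overlap, a 1.34-fold fall (−0.42 ± 0.04, edgeR adjusted p = 8.48e-11). With GW3965 it stood at 1123, 1097 and 1139 CPM, below vehicle by 0.15 on the log2 scale (−0.15 ± 0.04, edgeR adjusted p = 0.0127), a call that did not hold without GW3965 replicate 2 (0.082) or without vehicle replicate 2 (0.0559), over a range from 0.0011. T0901317 (1135 to 1205 CPM, −0.09 ± 0.04), DMHCA (1169.7 to 1242 CPM, −0.05 ± 0.04) and desmosterol (1221 to 1270.5 CPM, 0.01 ± 0.04) gave no call.

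Timp1 (chrX:20870166-20874737, plus strand), the inhibitor that inflammatory signals induce in many cells, was scarce, with 2 to 40 counts per library, and passed with no ligand. It stood at 1.57, 2.44 and 1.69 CPM in vehicle, at 0.524, 1.40 and 0.801 CPM with DMHCA, at 0.65, 0.708 and 1.32 CPM with MePipHCA and at 2.90, 3.06 and 3.34 CPM with desmosterol. DMHCA and MePipHCA libraries were below and desmosterol libraries above vehicle. The log2 changes were −1.04 (95% interval −1.89 to −0.18, edgeR adjusted p = 0.115), −1.02 (−1.89 to −0.15, adjusted p = 0.0617) and 0.67 (0.09 to 1.25, adjusted p = 0.15). GW3965 (1.35 to 2.81 CPM) and T0901317 (1.98 to 3.51 CPM) overlapped vehicle.

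DMHCA and MePipHCA were given at the same dose and time and can be set against each other directly, as can GW3965 and T0901317; desmosterol was given at another dose. Of the 8 genes 6 differed between MePipHCA and DMHCA, with 22.9% of all genes called (10.7% up, 12.1% down) and 36.6% not overlapping. With MePipHCA Mmp9 was 3.5-fold lower (−1.81 ± 0.22, edgeR adjusted p = 2.08e-08), Timp2 lower by 0.38 on the log2 scale (−0.38 ± 0.04, edgeR adjusted p = 4.68e-09) and Mmp19 by 0.23 (−0.23 ± 0.06, edgeR adjusted p = 0.00217). Mmp12 was 1.39-fold higher (0.48 ± 0.05, edgeR adjusted p = 6.38e-11), with libraries of 5127 to 5300.2 CPM against 3727 to 3779.9 CPM. Mmp8 was lower (−0.51 ± 0.16, edgeR adjusted p = 0.0184, range 0.00568 to 0.0987), a call lost without DMHCA replicate 1 (0.0987) or MePipHCA replicate 1 (0.061) or 3 (0.0561). Mmp14 was lower as well (−0.20 ± 0.07, edgeR adjusted p = 0.0375, range 0.00441 to 0.28), but the libraries overlapped and the call was lost without DMHCA replicate 1 (0.156) or 3 (0.0832) or MePipHCA replicate 1 (0.162) or 3 (0.28). Differences were 0.77 for Mmp13 (95% interval −0.17 to 1.70) and 0.02 for Timp1 (−1.10 to 1.14), neither called.

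Between T0901317 and GW3965 none of the 8 genes differed by edgeR's test, nor by DESeq2, and 0.0173% of all genes, 2 of 11544, were called (718 at an unadjusted p under 0.05), with 11.2% not overlapping. At an unadjusted p under 0.05 there were 2 of the 8, Mmp8 (0.35, 95% interval 0.02 to 0.68) and Mmp9 (0.32, 0.01 to 0.64), both higher with T0901317. Intervals were narrow for Mmp12 (−0.08 to 0.10), Timp2 (−0.03 to 0.14), Mmp19 (−0.14 to 0.10) and Mmp14 (−0.26 to 0.02) and wide for Timp1 (−0.23 to 1.28) and Mmp13 (−1.30 to 1.14).

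Of 20 further MMP and inhibitor genes 4 were abundant enough to test in macrophages, Mmp23, Mmp24, Mmp27 and Timp3. Besides Mmp27, the inhibitor Timp3, which binds to the matrix, fell with MePipHCA (20.2 ± 2.78 to 4.09 ± 1.22 CPM, −2.33 ± 0.20) and with DMHCA (to 11.9 ± 0.926 CPM, −0.77 ± 0.16). Mmp23 fell with MePipHCA (−1.98 ± 0.65, edgeR adjusted p = 0.014), and Mmp24 was called with no ligand. Mmp2, the gelatinase that Mmp14 and Timp2 activate, did not pass the filter.

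The background for the list counts from here on is the share of all genes called. It was 9.5% with desmosterol, 11.7% with DMHCA, 35.4% with MePipHCA, 13.2% with GW3965 and 12.8% with T0901317. Of 10 tested ADAM and ADAMTS genes 6 fell with MePipHCA and 0 rose, led by Adamts9 (−2.90 ± 0.31) and Adam12 (−2.69 ± 0.29). DMHCA raised 1 and lowered 4, desmosterol raised 1 and lowered 3, and GW3965 and T0901317 raised 0 and lowered 3 and 2. Adam17, the sheddase of TNF, fell with each ligand (−0.22 ± 0.05 with desmosterol, −0.39 ± 0.06 with DMHCA, −0.27 ± 0.06 with MePipHCA, −0.45 ± 0.06 with GW3965 and −0.61 ± 0.06 with T0901317). It is named here after its values were seen. Of 7 genes of plasminogen activation and pro-MMP conversion MePipHCA raised 1 and lowered 3, desmosterol raised 1 and lowered 1, DMHCA raised 1 and lowered 0, and each synthetic agonist raised 0 and lowered 2. Plau, the urokinase that makes plasmin, rose with desmosterol (0.87 ± 0.08), and the membrane protease St14 (−1.06 ± 0.31) and the plasminogen activator inhibitor Serpinb2 (−2.35 ± 0.91, edgeR adjusted p = 0.0409) fell with MePipHCA. Of 11 cathepsins and cystatins 3 rose with desmosterol, 4 with DMHCA, 4 with MePipHCA, 6 with GW3965 and 2 with T0901317, and 0, 0, 1, 2 and 2 fell. Ctsl, a lysosomal cysteine protease, rose by 1.04 ± 0.05 with MePipHCA, Ctsb rose by 0.30 ± 0.04 with DMHCA, and Ctsc fell with MePipHCA (−0.28 ± 0.06).

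The list of matrix substrates and matrix receptors shares Col1a1 and Col1a2 with the stromal markers given above. Of its 19 tested genes 3 rose and 14 fell with MePipHCA (median −1.40 beside 0.00 over all genes), and 3 rose and 10 fell with DMHCA (median −0.50). With desmosterol 1 rose and 0 fell, with GW3965 2 and 2 and with T0901317 4 and 2. Examples with MePipHCA were versican (Vcan, −2.14 ± 0.35), fibronectin (Fn1, −1.85 ± 0.13) and perlecan (Hspg2, −1.76 ± 0.17).

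Among 12 tested genes of the AP-1 and ETS factor families, which bind the motifs searched above, desmosterol raised 0 and lowered 3, DMHCA raised 1 and lowered 2, MePipHCA raised 2 and lowered 4, GW3965 raised 1 and lowered 4, and T0901317 raised 2 and lowered 2. With MePipHCA 6 of the 12 were called, beside 35.4% of all genes. Fos fell with T0901317 (−0.95 ± 0.18) and Ets1 with MePipHCA (−1.21 ± 0.34), in which Atf3 rose (0.58 ± 0.05). Whether these factors act on the MMP or TIMP genes was not tested.

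Over the 18 macrophage libraries the pattern of each gene was compared with all genes tested by Pearson's r of log2 CPM, as a description of points that share groups, depth and the vehicle libraries. The genes most like Mmp8 were Scamp1 (r = 0.87) and S1pr1 (0.86), and those most like Mmp9 were Grb10 (0.97) and Mki67 (0.96). Mki67 was also nearest to Timp2 (0.97), followed by Rab3il1 (0.97), and Mmp9 and Timp2 were the most alike pair among the 8 (0.95). Mmp12 was most like Rgs1 and Cd200 (0.97 each), Mmp14 like Ehd1 (0.90), and Mmp19 like Akr1b8 (0.94) and Reep5 (0.93). The scarce Mmp13 was most like Setmar (0.85) and Gpr107 (0.82) and Timp1 like Col24a1 (0.87) and Dbn1 (0.86). Mmp9 and Mmp12 correlated negatively (r = −0.73), with the MePipHCA mean lowest for Mmp9 (3.67 CPM) and highest for Mmp12 (5211 CPM). Among the other groups both means were highest with desmosterol (21.7 and 4098 CPM) and lowest with GW3965 (12.7 and 3460 CPM).

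In hepatocytes 3 of the 8 genes were abundant enough to test. In vehicle Mmp14 stood at 216 and 225 CPM, Mmp19 at 21.1 and 23.4 CPM and Timp1 at 9.88 and 6.95 CPM. The remaining 5 had at most 13 counts in a hepatocyte library, except Mmp12 with 46 in vehicle replicate 1 and 0 in vehicle replicate 2. Mmp12, 1085 RPKM in vehicle macrophages, was thus at 0.498 RPKM on average in vehicle hepatocytes, and Timp2 at 0.161 RPKM, while Mmp14 reached 85.3 RPKM. None of the 3 tested genes passed with any of the 5 ligands by edgeR or DESeq2, and 0 of the 3 had an unadjusted p under 0.05. Of all genes in hepatocytes 0.364% were called with desmosterol, 0% with DMHCA, 2.17% with MePipHCA, 0.478% with GW3965 and 0.941% with T0901317. The 95% intervals for Mmp14 were −0.03 to 0.33 with desmosterol, −0.04 to 0.32 with DMHCA, −0.27 to 0.10 with MePipHCA, −0.22 to 0.14 with GW3965 and −0.28 to 0.08 with T0901317.

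The difference between the cell types was tested in a joint fit of all 30 libraries over 10671 genes. The change of Mmp14 was more negative in macrophages by 0.68 with DMHCA (−0.68 ± 0.11, edgeR adjusted p = 4.79e-05, where 3.95% of all genes differed) and by 0.65 with MePipHCA (−0.65 ± 0.11, edgeR adjusted p = 3.03e-05, 12.7% of all genes). With desmosterol the difference of −0.40 ± 0.11 (edgeR adjusted p = 0.0258, 3.47% of all genes) was lost when any of 6 single libraries was left out: macrophage desmosterol replicate 1 (0.0868), macrophage vehicle replicate 2 (0.0591), hepatocyte desmosterol replicate 1 (0.0624) or 2 (0.0727) or hepatocyte vehicle replicate 1 (0.106) or 2 (0.0505), with 0.00979 at the lowest. With GW3965 (−0.30 ± 0.11, edgeR adjusted p = 0.136, 4.24% of all genes) and T0901317 (−0.33 ± 0.11, edgeR adjusted p = 0.0766, 4.93% of all genes) it did not pass. Mmp19 did not pass with any ligand, nearest with GW3965 (−0.40 ± 0.13, edgeR adjusted p = 0.0585), which passed under DESeq2 (0.0436), with the replicate block (0.0487) and without hepatocyte GW3965 replicate 2 (0.0393). Timp1 did not pass with any ligand. Cell type, culture medium and the dates in the sample titles cannot be told apart here.

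**Figure D5:**
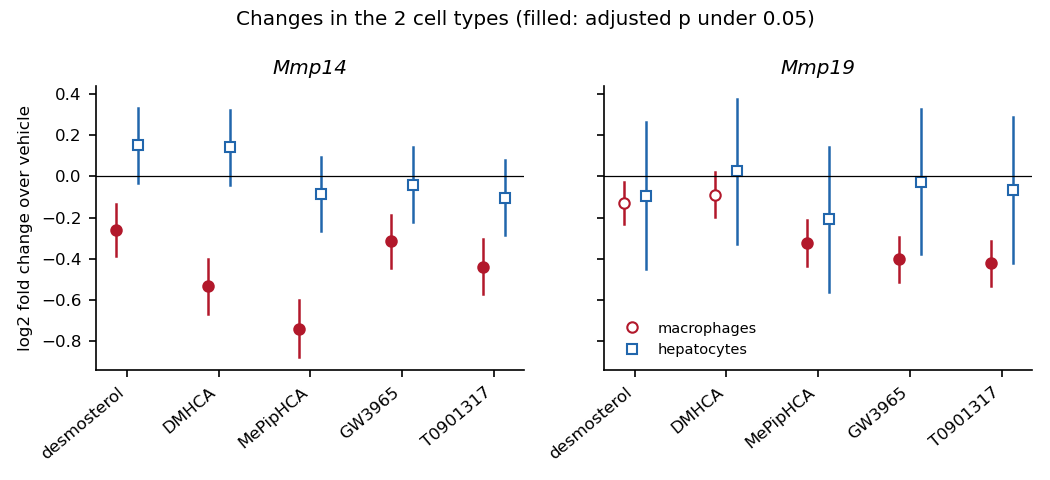
Log2 fold change over vehicle (vertical axis) of Mmp14 and Mmp19 for each ligand (horizontal axis) in macrophages (circles) and hepatocytes (squares), with 95% intervals; filled points passed an adjusted p of 0.05. Mmp14 is below 0 in macrophages with all 5 ligands, from −0.26 to −0.74, and no hepatocyte point is filled.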

How the data were processed

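Polyadenylated RNA was sequenced from dUTP-marked libraries, per the labels' protocols. STAR, HOMER and mm10 are named, without versions, per the submitters' processing notes. The authors deposited raw exon counts per gene, each taken on 1 RefSeq transcript, not pooled and not normalized, per the file headers, with no strand option stated. The deposited RPKM tables were compared with counts per length and, above 500 counts, differed by at most 0.0243%. Transcript lengths, a deposited value of no fixed range, came from the count tables.

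The genes and lists were chosen with earlier results of these data known. The test was that of edgeR 4.0.16 under R 4.3.3 (filterByExpr, TMM, quasi-likelihood test, 1 mean per group over the 6 groups of a cell type, Benjamini-Hochberg over all genes, threshold 0.05), which kept 11544 macrophage genes (12 residual degrees of freedom) and 13176 hepatocyte genes (6). The test of the difference between cell types, in which a gene had to pass the filter in both, was added after seeing the data. The SE was taken from the F statistic and the log2 fold change. Alternatives were DESeq2 1.42.0 and its size factors, no filter, only the groups compared, a replicate block, libraries thinned to 1 depth and leaving out each library. All 8 genes were named throughout. From each list the counts were given, with up to 3 genes of largest change past the threshold, and for each of the 8 the 2 genes of highest correlation, 1 of which is not reported here. On simulated counts for DMHCA against vehicle the test recovered 88% of 2-fold and 98% of 4-fold changes in macrophages (11384 genes) and 76% and 90% in hepatocytes (12739 genes). No replicates agreed within sampling noise (smallest chi-square per degree of freedom 1.39).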

Additional observations from a re-analysis of the deposited data

Results flagged for a closer look

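For Mmp14 the change over vehicle differed between macrophages and hepatocytes with 3 ligands by the test of the difference itself (edgeR, macrophage minus hepatocyte, log2 scale, Benjamini-Hochberg). The difference was −0.40 with desmosterol (adjusted p = 0.0258, lost when any of 6 single libraries was left out, up to 0.106), −0.68 with DMHCA (4.79e-05) and −0.65 with MePipHCA (3.03e-05). In each case Mmp14 fell in macrophages (each ligand library below each vehicle library) and was not called in hepatocytes. Of all genes 3.47%, 3.95% and 12.7% differed in these comparisons. In hepatocytes these 3 ligands did not raise Abca1, which they raised in macrophages. GW3965 and T0901317 raised Abca1 in hepatocytes, where Mmp14 was not called with either (−0.04 and −0.10). Their differences between the cell types, −0.30 and −0.33, had the same sign and did not pass. Whether the difference goes with LXR activation was not tested. The cell types also differ in medium and date.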

How the results depend on the processing

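Of 1053 values of the 8 genes recomputed under other settings, 1013 kept their side of the threshold, 37 lost and 3 gained a call, and 0 calls reversed; 36 values without a call changed sign. The losses are named beside each gene. Leaving out 1 library gave 1 to 2 called genes of the 8 with desmosterol in macrophages, 2 to 3 with DMHCA, 6 to 7 with MePipHCA, 3 to 6 with GW3965 (3 without GW3965 replicate 2 or vehicle replicate 2), 3 to 4 with T0901317 and 4 to 6 for MePipHCA against DMHCA. In the joint fit it gave 0 to 1 for desmosterol and 0 to 1 for GW3965, where DESeq2 and the replicate block gave 1 each. The replicate block otherwise changed 1 call in macrophages, Mmp13 with MePipHCA (6 in place of 7 genes). Whether replicate numbers pair the samples is not stated, so the block rests on the number alone. To look at this, the group mean of each gene was subtracted from its log2 CPM, and the remainders were correlated between libraries of compared macrophage groups. These remainders correlated at −0.05 to 0.14 for same-numbered libraries and at −0.15 to 0.08 for differently numbered ones, which does not settle it. Calls over all genes with vehicle replicate 2 left out were 665 for desmosterol in macrophages (1097 with it; up to 1042 with other libraries out) and 898 for DMHCA (1350; up to 1205), and thinning gave 660 for desmosterol. For T0901317 against GW3965 the 2 calls became 15 without the filter, 1 thinned, 8 with only those groups and 0 to 2 with a library out. In hepatocytes calls with desmosterol, DMHCA, MePipHCA, GW3965 and T0901317 (48, 0, 286, 63 and 124) were 15 to 41, 0 to 27, 114 to 207, 28 to 54 and 48 to 107 with a library out. DESeq2 gave 97, 108 and 252 for desmosterol, GW3965 and T0901317. No filter gave 139, 22, 163 and 256 for desmosterol, DMHCA, GW3965 and T0901317, the replicate block 1 for DMHCA, and only the groups compared 490 for MePipHCA and 107 for GW3965. Joint-fit calls were 242 to 323 for desmosterol (370; 219 thinned), 228 to 786 for DMHCA (422) and 290 to 425 for GW3965 (452) with a library out. Mmp13 and Timp1 rested on at most 40 counts in a macrophage library, so their intervals are wide.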
